A study of Mus musculus with 7 samples.

Results

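A set of 10 genes of muscle ubiquitin ligases were followed, chosen by name: Asb2, Asb5, Asb8, Asb11, Fbxo32 (atrogin-1), Trim54 (MuRF3), Trim55 (MuRF2), Trim63 (MuRF1), Cul3 and Klhl31. All 10 had a row among the 37975 genes of the authors' deposited table, and 9 of them were among the 15966 genes tested there. Mouse satellite cells, the stem cells of muscle, were sorted from animals of 4 to 6 weeks and grown as primary myoblasts. RNA was taken from growing myoblasts and from myotubes, the multinucleated fibres that formed after 48 hours in medium with 5% horse serum. Both carried an empty retroviral vector. MyoD, the helix-loop-helix factor of the muscle lineage, was located on chromatin of 2-day myotubes by immunoprecipitation (ChIP). Its label says that this sample came from an earlier one, and does not say whether those cells held the vector. Each group was 1 sample, and 4 further ChIP samples, of histones, were not used here.

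Ubiquitin ligases choose the proteins that are tagged with ubiquitin, in many cases for the proteasome. ASB proteins carry ankyrin repeats and a SOCS box that docks on the scaffold Cul5, F-box proteins such as atrogin-1 dock on Cul1 through Skp1, and BTB-Kelch proteins such as Klhl31 dock on Cul3. The MuRF proteins are single-chain RING ligases that bind the sarcomere and microtubules. In adult muscle, atrogin-1 and MuRF1 are best known for their induction during wasting, downstream of FoxO factors.

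Expression was given as FPKM, fragments per kilobase scaled by the number of mapped fragments, with 1 value per gene and condition. No replicate spread could be computed, so p and q (p adjusted over all tested genes) are those of the authors' Cuffdiff test. The standard error (SE) of a log2 fold change is the one implied by its test statistic. A gene is described as risen or fallen only where the authors called it at a q of at most 0.05. Log2 values above 0 mean a higher level in myotubes. RNA read totals were not known. The ratio most often seen among low genes would make the myoblast library 1.08 times as deep as that of myotubes, if FPKM was scaled to depth. Of 5 myoblast markers, 2 fell and 1 rose by the authors' deposited table. The satellite cell factor Pax7 (48.5 and 6.71 FPKM) and Myf5 (55.4 and 14.4) fell, though Myf5 was no longer called after centring on the median log2 fold change of all tested genes above 0 in both conditions (q = 0.0878). The intermediate filament gene Des rose from 539 to 2785 FPKM, while Myod1, at 895 and 293, and Cdh15, at 78 and 132, were not called. All 6 myotube markers rose, among them Ckm, the muscle creatine kinase (49.4 and 1453 FPKM), and the sarcomere genes Myh3 (111 and 2362), Tnnt3 (244 and 4309) and Acta1 (764 and 11909). Of 16 markers of fibroblasts, endothelium, immune cells, adipocytes and smooth muscle, 6 were tested, and of these 0 were called higher, also at an unadjusted p under 0.05, and 4 lower by the authors' Cuffdiff test. These fell while the ligase genes described here rose or were not called, and their part in the results was not tested. The summed level of each of these 5 lists lay between 1.96 and 74.7 FPKM in myoblasts and between 0.289 and 8.17 in myotubes, and Lum, Emr1 and Cnn1 were listed at 0 in both. In the authors' deposited table the pericyte marker Rgs5 fell to 7.72 from 73.1 FPKM and made up most of the highest sum, and the macrophage marker Cd68 (11 and 2.8 FPKM) also fell. In bulk RNA a larger share of differentiated cells and more RNA per cell cannot be told apart.

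All 10 genes were listed at a higher FPKM in myotubes than in myoblasts, against 33.1% of tested genes. Of the 9 tested, Asb2, Trim63, Klhl31, Trim55 and Trim54 rose in the authors' deposited table, while Asb5, Asb8, Fbxo32 and Cul3 were not called. Over all tested genes 6.52% were called higher and 17.3% lower. By the authors' Cuffdiff test 0 of the 9 were lower, also at an unadjusted p under 0.05. Called rises ran from 2.72-fold to 30.2-fold, and the ratios of the genes not called from 1.21 to 2.02. The median of log2((FPKM + 1) ratio) was 1.43 over the 9 tested genes and -0.38 over all tested genes. These members were chosen by name with earlier results of these data known, so the contrast describes them and is no test of the group. Of all calls of the authors, 27.3% were higher. After centring on the median log2 fold change of -0.41, 49.7% of calls were higher. Of the 9 genes, 6 were then called higher and 0 lower. Over the 15416 tested genes above 0 in both conditions, 10.2% were then called higher and 10.3% lower.

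**Figure D1:**
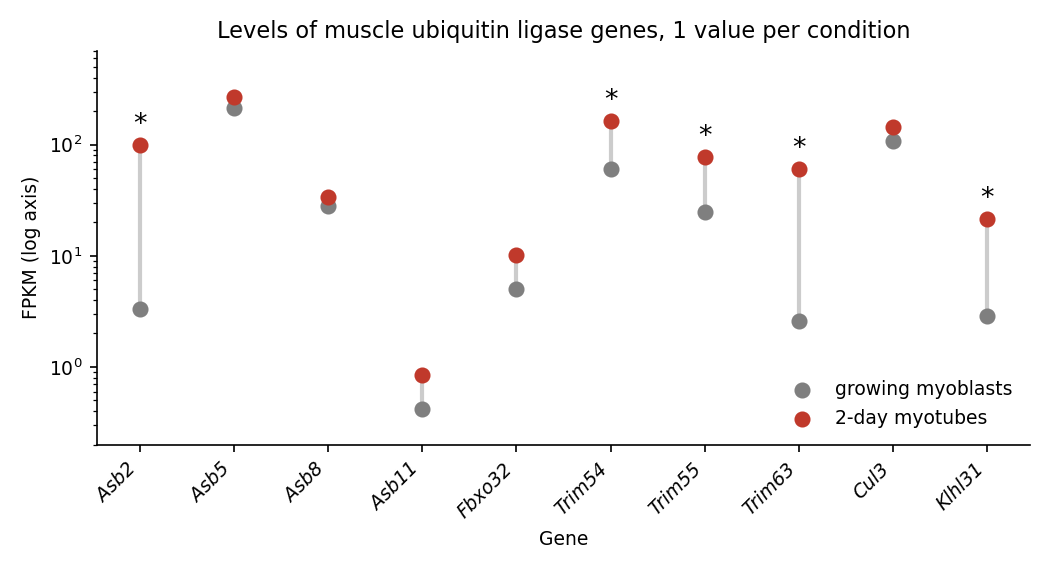
FPKM on a log axis for each of the 10 genes, 1 value in growing myoblasts (grey) and 1 in 2-day myotubes (red), with a star where the authors called the gene. Asb2 and Trim63 climb from about the level of Klhl31, near 3 FPKM, to 99.6 and 60.4, while Asb5 and Cul3 are at 107 or more in both conditions.

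The ASB adaptors held both the largest and the smallest changes among the 9 tested genes. Asb2, a Cul5 adaptor that targets filamins, had 3.30 FPKM in myoblasts against 99.6 in myotubes. It rose 30.2-fold in the authors' deposited table (log2 4.92, SE 0.64, q = 3e-12), with a 95% interval of 12.6-fold to 72.4-fold from the implied SE. This change was above that of 99.7% of the tested genes that were above 0 in both conditions. Asb5, another adaptor of the family, was already abundant, with 213 FPKM in myoblasts against 267 in myotubes, and led the 10 genes in both. The authors' deposited table makes no call for it (log2 0.32, SE 0.70, q = 0.801), and the interval of its ratio, 0.484 to 3.24, leaves room for a change in either direction. Asb8 was at 27.9 and 33.7 FPKM and likewise missed the threshold in the authors' deposited table (log2 0.27, SE 0.40, q = 0.698). Asb11, a further adaptor of this family, was listed at 0.418 and 0.848 FPKM and was too low for the authors to test. Asb5 stood at 64.7 times the level of Asb2 in myoblasts and at 2.68 times in myotubes. Asb2 thus went from 1.35% to 24.8% of the summed FPKM of these 4 genes.

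The MuRF genes all rose, by unequal amounts. Trim63, which encodes MuRF1, had 2.60 FPKM in myoblasts against 60.4 in myotubes. In the authors' deposited table it rose 23.2-fold (log2 4.54, SE 0.61, q = 9.13e-12), an interval of 10.2-fold to 52.9-fold. Trim54, whose product MuRF3 binds microtubules and the Z-disc, was at 60.6 and 165 FPKM and rose 2.72-fold in the authors' deposited table (log2 1.45, SE 0.43, q = 0.0052). Trim55, which encodes MuRF2, was at 24.7 and 77.8 FPKM and rose 3.15-fold (log2 1.66, SE 0.65, q = 0.0476, authors' deposited table). That q lies just inside the threshold. The intervals of Trim54, 1.52-fold to 4.86-fold, and of Trim55, 1.3-fold to 7.66-fold, overlapped each other and ended below that of Trim63. Whether the 3 changes differ was not tested.

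The order Trim54, Trim55, Trim63 was the same in both conditions, but the gaps were not. Trim54 was at 23.3 times the level of Trim63 in myoblasts and 2.73 times in myotubes, while its ratio to Trim55 was 2.45 and 2.12. The 3 genes summed to 87.9 FPKM in myoblasts and 303 in myotubes, and the share of Trim63 in that sum was 2.96% and 19.9%. With 1 value per condition no spread was available for these shares.

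**Figure D2:**
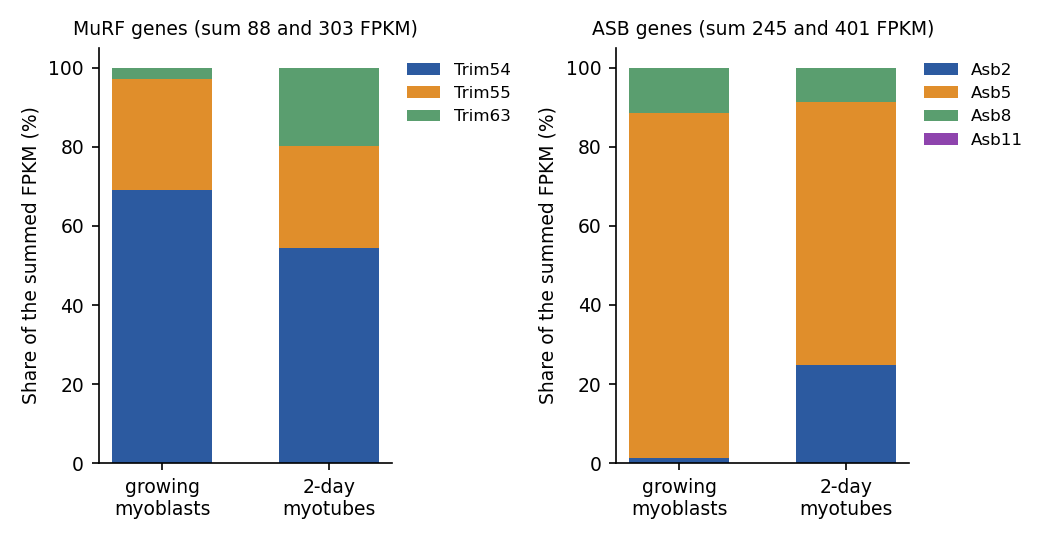
Stacked bars give the share of each gene, in percent, in the summed FPKM of the 3 MuRF genes (left) and the 4 ASB genes (right), in growing myoblasts and 2-day myotubes. Trim63 goes from 2.96% to 19.9% of the MuRF sum and Asb2 from 1.35% to 24.8% of the ASB sum.

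Fbxo32, the F-box adaptor atrogin-1, was among the lower genes of the set. Its level was 5.01 FPKM in myoblasts against 10.1 in myotubes. The authors' deposited table gives this difference a log2 of 1.01 with an SE of 0.70 and a q of 0.327, so it was not called. Its interval, a ratio of 0.778 to 5.22, holds no change as well as a rise of the size seen for Trim54 or Trim55. It ends below the lower bound of Trim63. In myoblasts Trim63 stood at 0.52 of the level of Fbxo32, and in myotubes at 5.99 times that level.

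On the Cul3 branch, Klhl31, a muscle BTB-Kelch adaptor, had 2.86 FPKM in myoblasts against 21.4 in myotubes. It rose 7.49-fold in the authors' deposited table (log2 2.90, SE 0.68, q = 0.00024), an interval of 2.99-fold to 18.8-fold. The scaffold Cul3 itself, at 107 and 144 FPKM, was left uncalled in the authors' deposited table at log2 0.44 (SE 0.31, q = 0.349). After centring on the median of tested genes above 0 in both conditions, Cul3 was called higher (log2 0.85, q = 0.0369). Its call thus depends on the scaling. Cul3 was second to Asb5 among the 10 genes in myoblasts and came after Asb5 and Trim54 in myotubes.

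**Figure D3:**
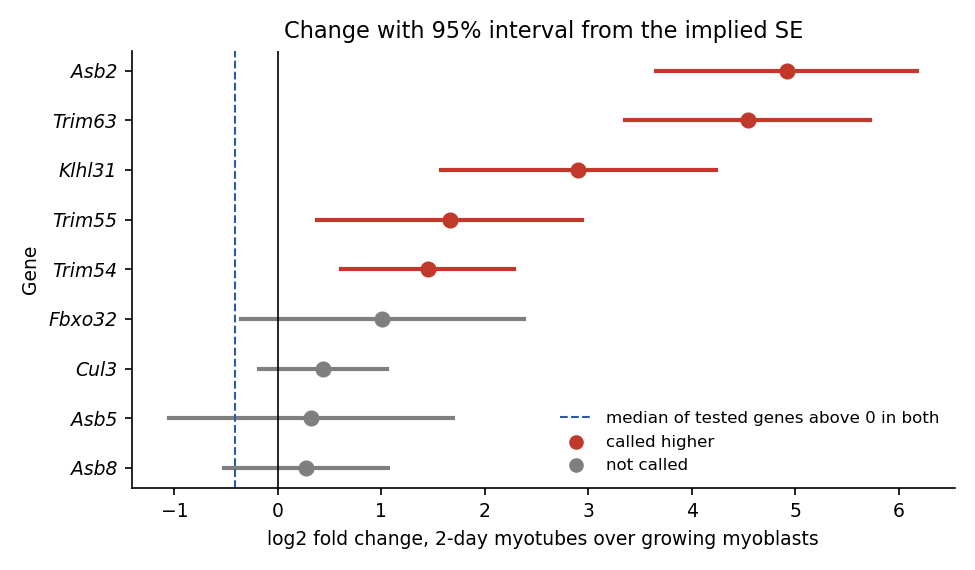
Log2 fold change of the 9 tested genes with 95% intervals from the implied SE, red where the authors called the gene and grey where not. The dashed line is the median of tested genes above 0 in both conditions, -0.41. The intervals of Asb2, Trim63 and Klhl31 start above 1.5, and those of Fbxo32, Cul3, Asb5 and Asb8 cross 0.

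By distance in log2(FPKM + 1) over the 2 conditions, the tested genes nearest to Asb2 were Myh4, R3hdml and Slc2a4, at 0.26, 0.37 and 0.43. Myh4, a fast myosin heavy chain, was at 4.02 and 90.6 FPKM, and Slc2a4, the insulin-responsive glucose transporter, at 3.65 and 74.4. Nearest to Trim63 were Extl1, Adprhl1 and Filip1, at distances of 0.047, 0.12 and 0.20. Extl1 was at 2.49 and 60.4 FPKM, and Adprhl1 at 2.58 and 55.4. Nearest to Fbxo32 were Rps6ka5, Uvrag and Gm7209, at 0.036 to 0.044, and none of these 3 was called in the authors' deposited table. Such a likeness rests on 1 value in each condition.

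MyoD peaks were assigned to a gene by summit, counting those inside its deposited locus and those up to 10 kb outside, in mm9 coordinates. Of the 10 genes, 6 had one, 13 peaks in all, and 38.8% of all tested genes did. Among tested genes with a locus of 0.5 to 2 times the length of a given member's, the share ran from 33.1% for Trim63 to 60.2% for Fbxo32, since longer loci hold more peaks. The value for Fbxo32 was matched on its deposited locus of 144092 bp, which is merged with that of Klhl38. Of the 5 genes that rose, Asb2, Trim54, Trim63 and Klhl31 had a peak and Trim55 did not, beside 58.5% of all genes called higher. Of the 4 tested genes not called, Asb5 and Fbxo32 had one, beside 37.2% of all tested genes not called. The 13 peaks held 7 to 53 tags with a median of 22, against a median of 14 over all 10756 peaks. At a false discovery rate of at most 5%, 4 of the 13 peaks and 3 genes, Asb2, Fbxo32 and Trim63, remained, and 11.7% of all tested genes had such a peak. The Fbxo32 peak that remained was counted by that merged locus and, by RefSeq gene lengths, lies between Fbxo32 and Klhl38. The list came from 1 ChIP library of 4049890 unique tags, against 8637045 tags in total, so these values have no replicate check. Tags, fold enrichment and false discovery rate are the authors' own values for each peak, and exon positions in mm9 were not used here.

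Asb2 had 4 peaks, a number that 4.85% of tested genes reached. One summit lay 298 bp outside the 5′ end of the locus, in the peak chr12:104594342-104594620, with 23 tags, 11.7-fold enrichment and a false discovery rate of 4.84%. Further upstream, 3583 bp from that end, the peak chr12:104597056-104598205 held 53 tags, more than 98.2% of all peaks. The other two summits were inside the gene, 17679 and 8851 bp from its 5′ end, with 28 and 13 tags. The deeper of these, chr12:104576290-104576862, had a false discovery rate of 3.22%. The noncoding gene Gm15523, which shares the locus, was listed at 0 FPKM in both conditions.

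Asb5, which was not called, also had 4 peaks by its deposited locus, which is merged with that of Spata4. One summit lay 35 bp inside the lower end of the deposited locus, in the peak chr8:55635413-55636089 with 24 tags and 15.2-fold enrichment. RefSeq places Asb5 on the plus strand and first in this merged locus, with Spata4, listed at 0 FPKM in both conditions, last. Its span from the start of Asb5 to the end of Spata4 is 59768 bp, and the deposited locus is 59769 bp. Upstream summits stood at 1807 bp with 22 tags and at 5840 bp with 9 tags, and the fourth, with 14 tags, lay 292 bp beyond the Spata4 end. That summit was 60060 bp from the 5′ end of Asb5, whose RefSeq length is 37512 bp. It was counted to Asb5 only by the merged locus. All 4 had a false discovery rate above 5%.

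At Trim54 a single summit lay 173 bp before the lower, 5′ end of the locus, in chr5:31418511-31419232, with 26 tags and 12.5-fold enrichment. Trim63 had its summit 7432 bp upstream, in chr4:133863454-133863688, with 12 tags, 24-fold enrichment and a false discovery rate of 3.32%. Klhl31 had one 765 bp inside its 5′ end, in chr9:77485213-77485736, with 33 tags and 9.14-fold enrichment. Fbxo32 had the peak with the highest fold enrichment of the 13, 32-fold from 22 tags in chr15:58092436-58092850, and a second of 7 tags 2159 bp outside the lower end. Its deposited locus of 144092 bp is merged with that of Klhl38, and RefSeq orders Fbxo32 before Klhl38, with gene lengths of 39014 and 9597 bp. The summit of the 32-fold peak lay 81011 bp from the lower and 63080 bp from the upper end, farther from each end than the length of the gene there. It was counted to Fbxo32 by the merged locus, and by these RefSeq lengths it lies between both genes. Nearest summits were 13159 bp away for Asb8, 43506 bp for Cul3, 77454 bp for Trim55 and 1548557 bp for Asb11.

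**Figure D4:**
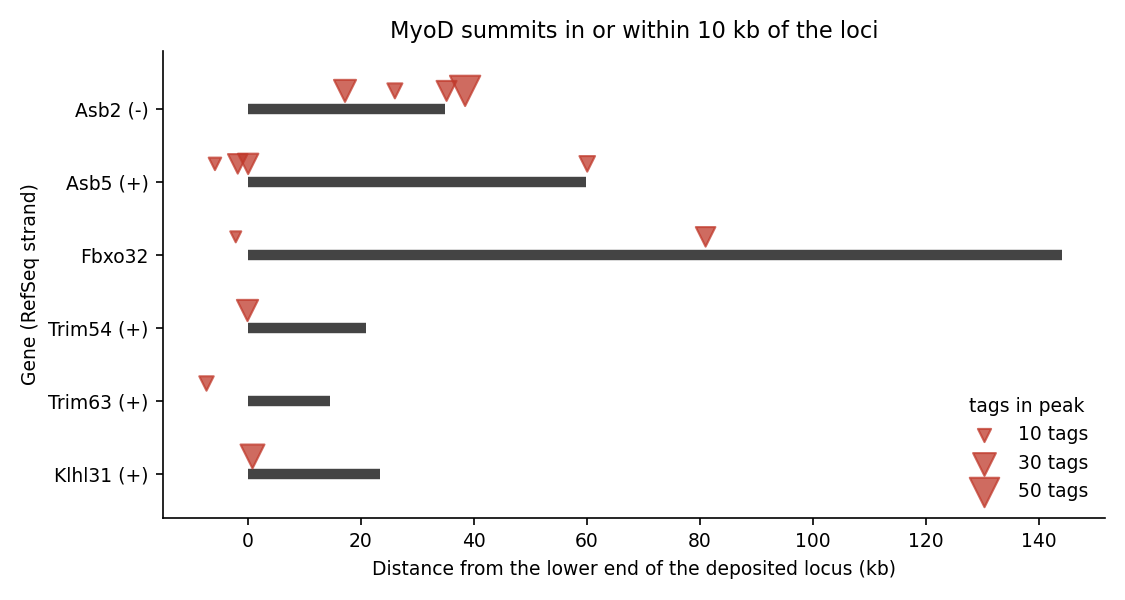
Distance in kb from the lower end of each deposited locus (black bar) for the 13 MyoD summits in or within 10 kb of 6 genes, with triangle area in proportion to the tags in the peak and the RefSeq strand in brackets. A summit lies within 765 bp of the 5′ end of Asb2 (right end, minus strand), Asb5, Trim54 and Klhl31, while the summit of Trim63 stands 7432 bp upstream. The other summits of Asb2 and Asb5 lie farther from that end.

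Promoter sequence was read from RefSeq in another build, GRCm38.p6, which held 12 start sites of 8 of the 10 genes. Fbxo32 and Trim55 were not matched. Windows of 300 bases, from 250 before to 50 after each start, were searched for the E-box CANNTG, for its forms CAGCTG and CAGGTG that MyoD prefers, for a core that FoxO factors bind (GTAAACA) and for the MEF2 site and the CArG box of serum response factor by their usual definitions. Both strands were searched, and the preferred forms are also counted under the general E-box. The form CAGCTG was found in 4 of the 12 windows, in Asb2, Asb5, Trim54 and Trim63, and in 16.3% of all 32851 windows. CAGGTG was found in 0 of the 12 and in 20.2% of all, and CANNTG in 8 of the 12 and 72.3% of all. The 250 bases before the first start of Asb2 (minus strand, chr12:103356002-103356251), of Trim54 (chr5:31116362-31116611) and of Trim63 (both plus strand, chr4:134314870-134315119) are shown because these genes rose and had MyoD summits upstream. Capitals mark the CArG box in Asb2, CAGCTG in Trim54, and the FoxO core, read on the other strand, followed by CAGCTG in Trim63.
Asb2: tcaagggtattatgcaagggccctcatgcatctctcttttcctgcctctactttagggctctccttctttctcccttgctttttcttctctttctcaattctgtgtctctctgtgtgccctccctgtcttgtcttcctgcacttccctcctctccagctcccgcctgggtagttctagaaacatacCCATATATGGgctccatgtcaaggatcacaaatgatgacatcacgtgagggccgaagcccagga
Trim54: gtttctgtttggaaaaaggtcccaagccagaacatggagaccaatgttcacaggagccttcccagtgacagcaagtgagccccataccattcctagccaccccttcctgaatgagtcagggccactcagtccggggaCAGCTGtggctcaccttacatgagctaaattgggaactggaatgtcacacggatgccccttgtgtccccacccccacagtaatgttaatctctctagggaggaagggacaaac
Trim63: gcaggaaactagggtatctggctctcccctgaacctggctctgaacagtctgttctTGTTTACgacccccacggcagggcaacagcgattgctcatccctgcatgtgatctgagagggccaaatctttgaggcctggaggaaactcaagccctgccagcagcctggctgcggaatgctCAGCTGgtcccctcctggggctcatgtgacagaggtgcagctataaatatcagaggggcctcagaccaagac

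The CArG letters stood 64 bases before the first Asb2 start, and 1.63% of all windows hold a CArG box. In Trim54 CAGCTG began 113 bases before the start. In Trim63 it began 72 bases before the start, and the FoxO core 194 bases before it, a core in 3.65% of all windows. The MyoD peak of Trim63 lies farther upstream than this window. Both upstream summits of Asb2, the nearer at 298 bp, also lie outside its window by distance from the 5′ end. Asb5, whose first window also held a CArG box, had CAGCTG from base 29 after its first start, and a window at a later start held a MEF2 site, which 3.19% of all windows hold.

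RefSeq lists a second Asb2 start 17611 bp downstream of the first. The RefSeq gene is 34860 bp long and the deposited locus 34861 bp, so distances along the gene can be set side by side without moving coordinates between builds. The intragenic MyoD peak of 28 tags spanned 17349 to 17921 bp from the 5′ end, with its summit at 17679 bp. CAGCTG began 22 bases after the second start. Both sites of this kind are shown as 24 bases with the E-box in capitals, since each lies by such distances under a MyoD peak: Asb2 at chr12:103338355-103338378 (minus strand) and Asb5 at chr8:54550350-54550373 (plus strand), in GRCm38.p6.
Asb2: gagacacagCAGCTGtgtccagca
Asb5: ccttcggacCAGCTGttcaagagc
A match of letters is a description and not evidence of binding there, and peak sequences were not read, because no mm9 genome was used here.

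Other genes of the same machinery were taken from lists chosen by knowledge of the pathway. Of 16 further tested genes of the ASB and Cul5 branch, 5 rose and 0 fell by the authors' Cuffdiff test (6 and 0 at an unadjusted p under 0.05), beside 6.52% and 17.3% of all tested genes, with a median log2((FPKM + 1) ratio) of 0.53. Asb16 rose from 0.831 to 8.46 FPKM (log2 3.35, SE 0.74), Asb15 from 0.138 to 1.83, Asb12 from 0.0866 to 2.62 and Asb14 from 0.223 to 1.42 in the authors' deposited table. Neurl2, the adaptor Ozz of a muscle Cul5 ligase, rose from 3.21 to 16.8 FPKM. None of these 4 ASB genes passed 8.46 FPKM, where Asb2 reached 99.6. The scaffold Cul5, at 43.1 and 35.6 FPKM, was not called.

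Among 16 tested adaptors of Cul3, 7 rose and 0 fell in the authors' deposited table, beside 6.52% and 17.3% of all tested genes. At an unadjusted Cuffdiff p under 0.05 these numbers were 7 and 1. Their median was 0.43, against -0.38 over all tested genes. Kbtbd10 (Klhl41) rose from 25.1 to 262 FPKM (log2 3.38, SE 0.70) and Kbtbd5 (Klhl40) from 9.17 to 105 (log2 3.51, SE 0.68), both adaptors that keep the sarcomere stable. Klhl30 rose from 13.9 to 121 FPKM, Klhl13 from 20.6 to 113, Klhl34 from 0.211 to 5.82, Klhl33 from 0.261 to 1.55 and Klhl18 from 8.12 to 19.7 in the authors' deposited table. In myotubes Klhl31, at 21.4 FPKM, was thus below Kbtbd10, Klhl30, Klhl13 and Kbtbd5.

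Of 10 tested genes of the F-box and Cul1 list, 1 rose and 1 fell, beside 6.52% and 17.3% of all tested genes. Fbxl22, an F-box protein of the Z-disc, rose from 1.02 to 4.93 FPKM in the authors' deposited table. Skp2, which drives cell cycle entry, fell there to 3.16 from 18 FPKM. Fbxo30 (MUSA1), at 16.7 and 14 FPKM, Fbxo21, at 14.8 and 6.86, and Fbxo40, at 6.53 and 7.07, were not called, nor was the atrogin-1 paralogue Fbxo25, at 25 and 11.1. Of 13 other tested muscle ligases, 1 rose and 1 fell, beside the same shares of all tested genes. Trim72 (mitsugumin 53, a membrane repair protein) rose from 15.1 to 224 FPKM (log2 3.88, SE 0.70). Mdm2, the p53 ligase, fell to 133 from 256 FPKM in the authors' deposited table. At an unadjusted Cuffdiff p under 0.05, 1 of the 13 was higher and 4 were lower. Mdm2 was no longer called after centring (log2 -0.54, q = 0.216). None of 11 tested E1 and E2 enzymes was called by the authors' Cuffdiff test, at an unadjusted p under 0.05 or after centring. By that Cuffdiff test 6.52% of all tested genes were called higher and 17.3% lower. Uba1, the main E1, was at 568 and 569 FPKM.

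**Figure D5:**
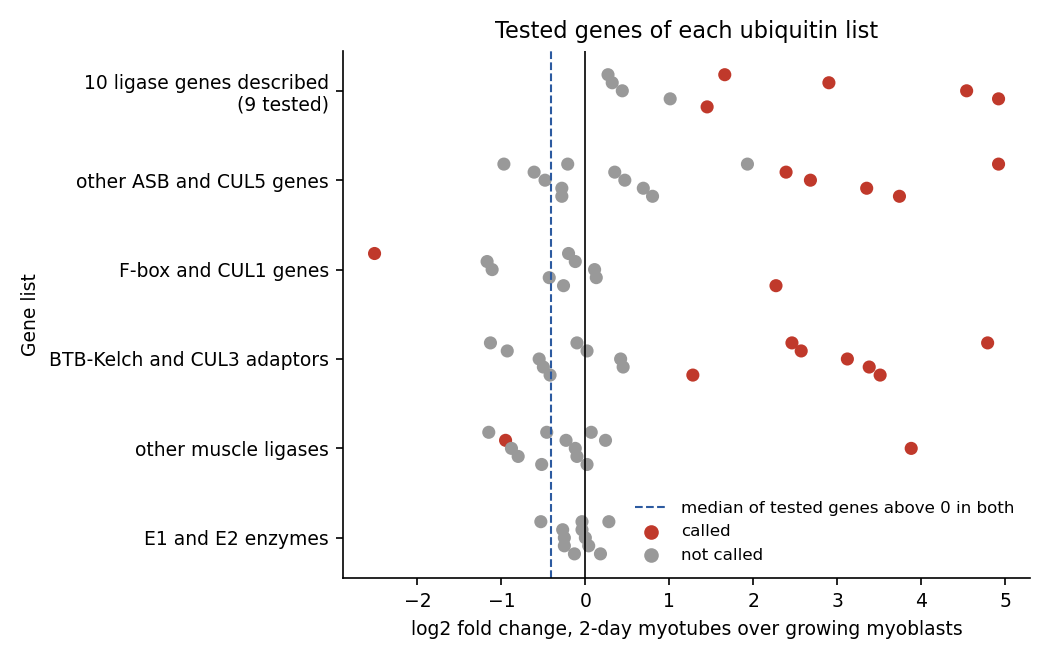
Log2 fold change of each tested gene of the 10 ligase genes described and of 5 further ubiquitin lists, red where the authors called the gene, with the median of tested genes above 0 in both conditions as a dashed line at -0.41. Called genes to the right of 0 appear among the ligase genes described, the ASB and BTB-Kelch lists, the F-box list (Fbxl22) and the other ligases (Trim72), and none of the E1 and E2 enzymes was called.

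Of 9 tested regulators, Myog, the myogenic factor that acts on Fbxo32 and Trim63 in denervated muscle, rose from 130 to 1207 FPKM, and Nfkb1 fell (64.6 and 24.3 FPKM) in the authors' deposited table. The FoxO genes were not called, with Foxo1 at 20.3 and 17.2 FPKM, Foxo3 at 19.7 and 23.8 and Foxo4 at 33.9 and 37.3. Transcript level says nothing of their location or phosphorylation. Of 12 tested substrates and partners 8 rose and 1 fell in the authors' deposited table, beside 6.52% and 17.3% of all tested genes. Their median was 2.62, against -0.38 over all tested genes. Those that rose included the sarcomere genes Mylpf, from 1816 to 33258 FPKM, Myl1, from 512 to 6696, Mybpc1, from 31.4 to 484, and Tcap, from 11 to 251. Flnc, a target of Klhl31 named here after its values were seen, rose from 96 to 314 FPKM in the authors' deposited table. Flna, a target of Asb2 also named after its values were seen, was listed at 1445 and 239 FPKM, where the authors' test had failed.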

How the data were processed

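RNA of growing myoblasts and of 2-day myotubes and MyoD ChIP of 2-day myotubes were used, 1 sample per group. The authors deposited FPKM values with log2 fold changes, p-values and q-values in the layout of a Cuffdiff gene table, in 2 identical copies of which 1 was used. Cuffdiff, CASAVA 1.7.0, MACS 1.3.7 and the mm9 build are named in the submitters' processing notes. No source used here names the aligner, the annotation or the normalization setting. The peak headers count unique tags apart from total tags, and the handling of duplicates is not named beyond that. Peaks were called with MACS against a control at a p-value threshold of 1.00e-05, per the file headers. Tags per peak are counts, fold enrichment is a ratio to regional background, the false discovery rate is a percent and the score of a peak is the negative log10 of its p times 10, per the file headers.

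The SE was recovered as log2 fold change over test statistic, and recomputed p-values differed from the deposited ones by at most 2.68e-06. Centring subtracted the median log2 fold change of 15416 tested genes above 0 in both conditions, with Benjamini-Hochberg adjustment over them. It was checked on simulated data with a common shift and changes drawn with equal odds in both directions. That check cannot tell whether centring suits data where rises and falls are unequal in number. Intervals are 95% and rest on that SE. Summits are start plus offset minus 1. Loci were used as deposited, and lengths 1 bp above RefSeq's at several genes do not tell whether their starts are counted from 0. In the table, 30.4% of tested genes share their locus with another tested gene. Levels of 2 rows under 1 symbol (Hdac4) were taken from the larger. Members, lists and naming rules were chosen with earlier results of these data known. All 10 members were named. The values of 1 listed gene that is no member are not reported here. From the ligase lists every called gene was named, from the other lists up to 4 called genes of the largest change that reached 10 FPKM in either condition, and for Asb2, Fbxo32 and Trim63 the 3 nearest genes. Alternatives were other thresholds, pseudocounts (0.1 and 5 in place of 1), centring, windows and peak filters. Python 3.11.15, pandas 2.3.3, numpy 2.4.6, scipy 1.17.1 and matplotlib 3.10.9 were used.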

Additional observations from a re-analysis of the deposited data

How the results depend on the processing

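The number of tested ligase genes called higher was 5 as deposited, 6 after centring, 4 at a q of at most 0.01 and 5 among genes that reached 1 FPKM in either condition, and the number called lower was 0 under each of these. Of all tested genes 4.68% were called higher and 11.1% lower at a q of at most 0.01, and 6.56% and 17.4% among genes that reached 1 FPKM. Trim55 lost its call at a q of at most 0.01 and Cul3 gained one after centring. Of the other genes named here, Asb14, Neurl2, Fbxl22, Klhl33, Myf5 and Acta1 also lost their calls at a q of at most 0.01. Over all 15966 tested genes 1041 were called higher and 2769 lower as deposited. After centring these numbers were 1575 and 1593, over the 15416 tested genes above 0 in both conditions. The median log2 ratio of the ligase genes lay between 1.16 and 1.81 under other pseudocounts, centring and the inclusion of Asb11. Of the 10 genes 6 had a MyoD peak. This number was 4 for summits in the locus (27.5% of all tested genes), 8 within 50 kb (59.9%), 6 by any overlapping base (39%) and 5 for peaks of at least 14 tags (26.3%). With peaks of a false discovery rate of at most 5% only Asb2, Fbxo32 and Trim63 were left, 3 of 10, against 11.7% of all tested genes. Fbxo32 was counted in the locus, at 14 tags and at this rate only through 1 peak of its merged locus. By RefSeq gene lengths that peak lies between Fbxo32 and Klhl38. No paired analysis was possible because each group has 1 sample, and for the same reason no replicate could be left out. The lack of replicates and of read totals limits each value.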
